A study of Sus scrofa with 30 samples.

Results

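MiR-191 and miR-425 are encoded side by side, and in the pig both genes lie inside DALRD3 on chromosome 13. In the list of annotated sequences of porcine endometrium 10 carried one of these names, 6 for miR-191 and 4 for miR-425, beside 863 sequences of other names, and all 10 are described here. Within that list they were chosen by name alone, as entries with the root mir-191 or mir-425 in any species prefix, arm or letter case, and counted as reads identical to the listed sequence. The list itself was filtered by level. The study describes keeping sequences that reached 10 reads in 4 or more libraries of at least 1 group, with fewer libraries needed in CD12. A scarce member could thus enter through a group where it was high. Small RNA was sequenced in 30 libraries, 1 per animal, from Hampshire x Duroc gilts of 1 herd aged 7 to 8 months. Pregnant (P) gilts had been inseminated and carried conceptuses, cyclic (C) gilts were in the estrous cycle, and tissue was taken on day (D) 12, 16 or 20, which gave PD12 (n = 5), PD16 (n = 5), PD20 (n = 6), CD12 (n = 4), CD16 (n = 5) and CD20 (n = 5). Uterine horns of pregnant animals were flushed to remove conceptuses up to D16. On D20 of pregnancy the embryos and trophoblast were taken off, and the endometrium came from implantation sites. PD20 thus differs from the other groups in the site sampled and in how the tissue was freed of conceptus. All comparisons are between different animals.

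A miRNA is cut from a hairpin precursor, and either strand of the hairpin, the 5p or the 3p arm, can be loaded into the silencing complex. Bases 2 to 8 of the loaded strand, the seed, pair with target mRNAs, so a miRNA that starts 1 base later reads another seed. Many miRNAs occur as isomiRs, variants with bases added or lost at an end. Neighbouring miRNA genes are often copied into 1 primary transcript, and miR-191 and miR-425 are known as such a pair, expressed widely across tissues. miR-191 has often been used as a reference in miRNA measurements. A shared transcript does not fix the level of the mature products, since processing and decay can differ for each hairpin. The question put to the data was whether the miRNAs of this pair move together between groups and between animals.

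The 10 sequences are shown because their ends decide both the seed and which name counts as the annotated mature form. Capitals mark the seed, bases 2 to 8 from the 5′ end, and T stands for U. Forms are numbered by abundance within an arm. miR-191-5p form 2 and miR-425-3p form 2 are the annotated mature sequences of pig, and the other 8 carry precursor names.
miR-191-5p form 1: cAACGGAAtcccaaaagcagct
miR-191-5p form 2: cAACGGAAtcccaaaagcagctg
miR-191-5p form 3: cAACGGAAtcccaaaagcagc
miR-191-5p form 4: cAACGGAAtcccaaaagcagctgt
miR-191-5p form 5: aACGGAATcccaaaagcagct
miR-191-5p form 6: aACGGAATcccaaaagcagctg
miR-425-5p form 1: aATGACACgatcactcccgttgagt
miR-425-5p form 2: aATGACACgatcactcccgttgag
miR-425-3p form 1: cATCGGGAatgtcgtgtccgcc
miR-425-3p form 2: aTCGGGAAtgtcgtgtccgccc

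All 6 miR-191 sequences came from the 5p arm. The 4 that start with C are 21 to 24 bases long and differ at the 3′ end, whereas forms 5 and 6 lack the first C and so read the seed ACGGAAT in place of AACGGAA. The 2 miR-425-5p forms share the seed ATGACAC. The 2 miR-425-3p forms have the same length of 22 bases, but form 1 starts 1 base earlier and ends 1 base earlier than the annotated form, which gives the seeds ATCGGGA and TCGGGAA. Thus the 10 sequences carry 5 seeds, and no sequence of another miRNA name in the list carried any of them.

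Libraries held between 2029729 and 6402731 reads. Group medians were 3344957 (PD12), 2456804 (PD16), 3325715 (PD20), 3409701 (CD12), 3081171 (CD16) and 2640551 (CD20). Levels are given as CPM of edgeR, a library's count relative to its TMM-scaled number of annotated reads. miR-191-5p form 1 held 31090 reads over the 30 libraries and was the 113th most abundant listed sequence, and the annotated form 2 held 11765 reads at rank 172. The other 4 miR-191 forms held between 426 and 3158 reads. miR-425 was scarce in comparison, with 532 reads for miR-425-3p form 1, 514 for miR-425-5p form 1, 261 for miR-425-3p form 2 and 250 for miR-425-5p form 2. A library therefore had between 374 and 2910 reads of miR-191-5p form 1 but between 4 and 87 of miR-425-5p form 1, and values of miR-425 carry far more counting error. The listed ends were also only part of each arm. Reads sharing the first 17 bases of a member numbered 61270 for miR-191-5p, of which 79.0% matched a listed sequence exactly, but 1954 for miR-425-3p and 1558 for miR-425-5p, of which 40.6% and 49.0% did.

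The tissue label was checked with miRNAs known from single cell types. All 10 epithelial names, among them the miR-200 family, and all 4 names of stroma and smooth muscle were found, led by miR-200c with 4616 CPM and miR-143 with 61442 CPM on average. Markers were looked up by name, and 0 of 5 names typical of the embryo were found. However, the sequence that the study's list of assays gives for miR-302, which is known from embryonic cells, is listed under Ensembl gene names. It had 7, 4, 11, 117, 48 and 121 reads in the 6 PD20 libraries (17.8 ± 18.2 CPM), 2 and 1 reads in CD20 replicates 1 and 5, and 0 reads in the other 22 libraries, where 0 allows up to 3 reads. An embryo-type miRNA was thus counted in all PD20 libraries, and its part in the comparisons with PD20 was not tested. In such bulk tissue, fewer cells of a type and less RNA per cell cannot be told apart.

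A pair of libraries stood apart in the last base of their reads. Sequences that differ from a listed one only by a C in place of the last base took between 3.56% and 7.97% of the reads of 28 libraries, but 0.312% in PD20 replicate 3 and 0.217% in CD16 replicate 3. miR-191 shows the same: a form that is not in the list and differs from form 1 by T22C, counted from 1 at the 5′ end, had between 87 and 475 reads in each of the 28 libraries, 1 read in PD20 replicate 3 and 0 reads in CD16 replicate 3, where 0 allows up to 3 reads. Form 1 itself had 694 and 771 reads there. The median differences between groups that hold these libraries are given below with and without them.

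miR-191-5p form 1 had similar levels in 5 of the 6 groups, and the highest mean in CD20. Levels were 436, 289, 247, 592 and 284 CPM in PD12, and 513, 263, 323, 409 and 445 CPM in PD16. In PD20 they ran from 167 to 511 CPM with a median of 280. The cyclic animals had 487, 201, 318 and 247 CPM on D12, and 271, 278, 364, 534 and 688 CPM on D16. On D20 of the cycle they had 1102, 871, 583, 240 and 508 CPM. Of these 5 values 3 exceeded every value of PD20, yet the lowest lay below the PD20 median, so the groups overlapped. In order of the means the groups were CD20 (661 ± 334 CPM, SD), CD16 (427 ± 180), PD16 (391 ± 98.8), PD12 (370 ± 144), CD12 (313 ± 125) and PD20 (296 ± 118), and each neighbouring pair in this order differed by less than the larger of its SDs.

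The annotated form 2 of miR-191-5p followed form 1 but varied more between animals. In CD20 its levels were 615, 434, 345, 67.9 and 95.2 CPM, and in PD20 they ran from 31.7 to 235 CPM with a median of 54.0 (mean 79.5 ± 76.6). Means of the remaining groups were 137 ± 83.7 (PD12), 112 ± 125 (PD16), 130 ± 87.0 (CD12) and 164 ± 83.6 CPM (CD16), and CD20 was the highest with 311 ± 231 CPM. On the log2 scale the SD within groups was 0.59 for form 1 and 1.13 for form 2. Among the 548 sequences that averaged 10 CPM or more, 34.7% had a smaller SD than form 1 and 93.1% a smaller SD than form 2. The choice of the end therefore decided whether miR-191 ranked among the steadier or the most variable sequences.

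In every library form 1 outnumbered form 2, by 1.54-fold to 12.7-fold, although form 2 is the annotated sequence. The share of form 1 among the listed miR-191 reads averaged 67.3% ± 9.06 (n = 30), and that of form 2 averaged 21.4% ± 8.33. The forms that start 1 base later, and so read the other seed, took 1.38% ± 0.466 (form 5) and 0.793% ± 0.411 (form 6). Each of these means stands for 30 libraries of different depth, weighted equally.

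miR-425-5p form 1 was higher in 3 of 4 animals on D12 of the cycle than in any CD16 animal. There it had 2.74, 22.3, 18.2 and 8.66 CPM, from 5, 87, 38 and 21 reads. On CD16 it had 1.35, 2.96, 4.25, 3.24 and 2.39 CPM, from 5 to 9 reads each, and on CD20 it had 17.04, 5.29, 5.59, 5.01 and 7.62 CPM. Every CD20 value exceeded every CD16 value. In pregnancy it had 6.57, 2.41, 4.16, 5.42 and 19.9 CPM on D12, 2.28, 2.36, 2.06, 3.72 and 2.85 CPM on D16, and between 3.06 and 8.31 CPM (median 5.33) on D20. By mean the order was CD12 (12.97 ± 8.89 CPM), CD20 (8.11 ± 5.10), PD12 (7.69 ± 6.99), PD20 (5.53 ± 1.87), CD16 (2.84 ± 1.07) and PD16 (2.66 ± 0.664). Only the step from PD20 to CD16 was larger than the SD of both neighbours. The lowest means of both series thus fell on D16. The reads in CD16 lay below the study's limit for its list, so this sequence could enter only through groups with higher means. Its entry and its low level on D16 are not independent, which bears on each comparison with CD16 or PD16.

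The annotated miR-425-3p, form 2, had its lowest values in PD20. There it was counted with 4, 0, 1, 6, 0 and 4 reads, that is between 0 and 2.01 CPM with a median of 0.889, and a count of 0 allows up to 3 reads. CD20 had 12.5, 7.40, 2.33, 3.90 and 3.33 CPM, from 33, 21, 5, 7 and 7 reads, so the groups did not overlap. CD12 had 3.29, 8.71, 4.30 and 6.595 CPM and CD16 had 0.269, 2.96, 2.36, 1.85 and 1.60 CPM, again with no overlap. PD12 had 4.38, 4.47, 0.462, 2.37 and 7.37 CPM and PD16 had 1.90, 0.590, 1.03, 5.58 and 2.38 CPM. In contrast miR-425-3p form 1, from the same arm, had 6.12 ± 1.06 CPM in PD20 and 4.82 ± 2.87 CPM in CD20, and form 2 of miR-425-5p had 3.29 ± 1.33 and 4.09 ± 2.24 CPM.

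**Figure D1:**
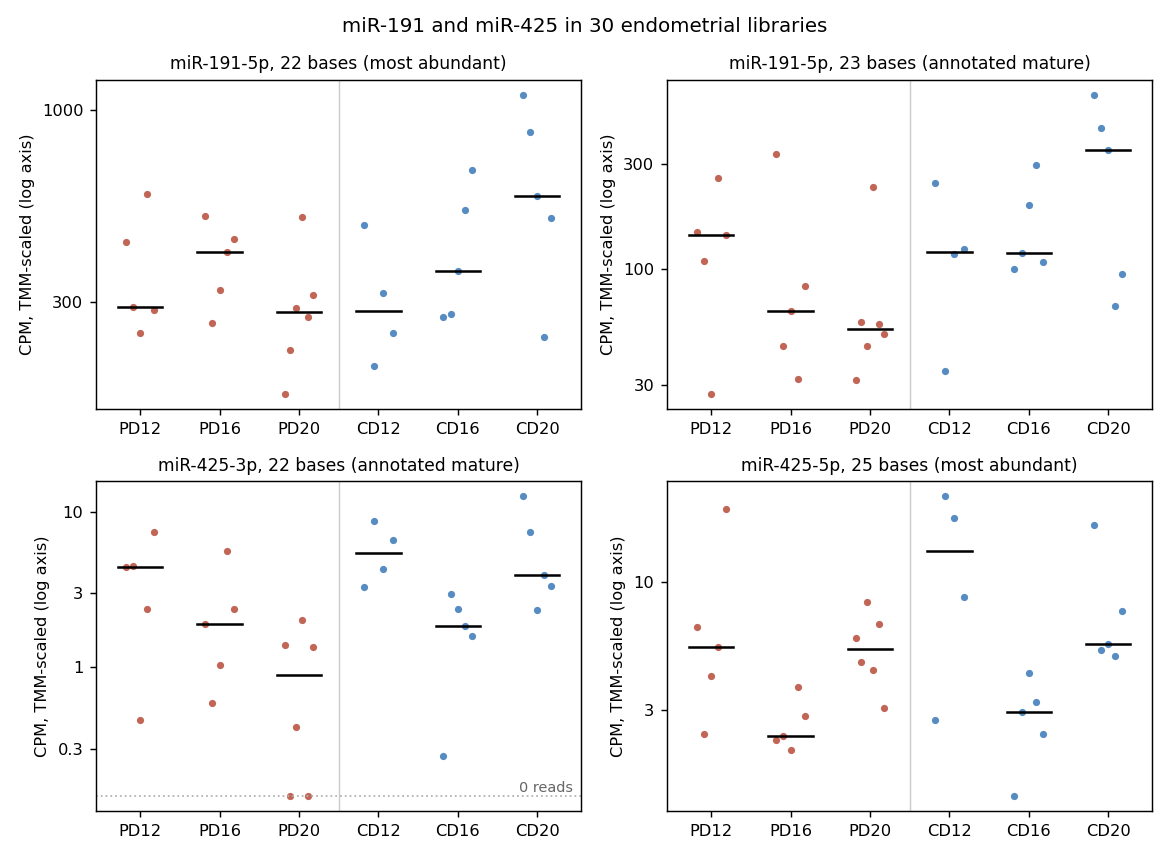
Levels of 4 of the 10 sequences in each library, in CPM on a log axis, by group (red, pregnant; blue, cyclic), with 1 point per animal and a bar at the group median. Points of miR-425-3p form 2 lie at 2.01 CPM or less in PD20, 2 of them with 0 reads on the dotted line, and at 2.33 CPM or more in CD20, while the groups overlap for both miR-191 forms.

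The design compares days within pregnancy and within the cycle, and P with C on each day. The test was edgeR's quasi-likelihood F-test, with D16 and D20 tested jointly against D12 within each series and the other 5 comparisons as single contrasts, and a sequence was called when its adjusted p was under 0.05 and its log2 fold change (log2FC) exceeded 1 in size. None of the 10 sequences passed, so 0 were called in each of the 9 comparisons, and few sequences of the whole list were called. Between pregnant and cyclic animals the background was 0% on D12, 0% on D16 and 1.49% on D20. Within the cycle it was 0.115% for CD16 against CD12, and 0.458% both for CD20 against CD12 and for CD20 against CD16. Within pregnancy it was 0.229% for PD16 against PD12, 0.802% for PD20 against PD12 and 0.573% for PD20 against PD16.

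A looser count, the single contrasts with an unadjusted p under 0.05, set the comparisons apart. It held 6 of 10 members on D20 between P and C, against 28.5% of all sequences, and 0 members on D12 or D16, against 6.08% and 10.9%. In the cycle it held 4 for CD20 against CD16 (21.2% of all), 3 for CD16 against CD12 (17.1%) and 2 for CD20 against CD12 (14.3%). In pregnancy it held 1 for PD16 against PD12 (10.2%), 1 for PD20 against PD12 (20.6%) and 0 for PD20 against PD16 (14.2%). The calls depended on the test. The likelihood ratio test of edgeR and DESeq2 each called 5 members between PD20 and CD20, which were miR-191 forms 1 to 4 and miR-425-3p form 2, and 1 member, miR-425-5p form 1, between CD16 and CD12. Neither called a member elsewhere. There the likelihood ratio test called between 1 (PD12 vs CD12) and 56 (CD20 vs CD16) of all sequences, and DESeq2 between 0 and 75 in the same comparisons. Both tests also called 124 (14.2%) and 131 of all sequences between PD20 and CD20, where the F-test called 13, and 5.27% and 1.95% of all between CD16 and CD12, so these tests called more sequences throughout the list.

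On PD20 vs CD20 all 6 miR-191 sequences had negative log2FC, in pregnancy relative to the cycle, where 48.6% of all sequences had a positive one. Form 1 had a log2FC of −1.16 (SE 0.397, edgeR F-test adjusted p = 0.0794) and form 2 of −1.97 (SE 0.603, adjusted p = 0.0630). Forms 3 and 4 had −1.62 and −1.76, and forms 5 and 6, with the shifted seed, had −0.94 and −1.73. The median over miR-191 was −1.68, against −0.03 over all sequences. The 6 members with an unadjusted p under 0.05 here were 5 miR-191 sequences and miR-425-3p form 2, all lower in PD20, where 15.2% of all sequences were lower at that p. None of these differences passed the adjusted threshold in the F-test.

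miR-425 did not show 1 direction on that day. The annotated miR-425-3p had a log2FC of −2.62 (SE 0.668, edgeR F-test adjusted p = 0.0519), and 2.18% of all sequences had lower values in PD20 than in CD20 with no overlap. miR-425-3p form 1 had 0.34 (SE 0.461, adjusted p = 0.633). miR-425-5p forms 1 and 2 had −0.54 and −0.26. Except for the annotated form these values were not stable, since without CD20 replicate 1 miR-425-5p form 1 had −0.059, and without CD20 replicate 4 miR-425-3p form 1 had 0.075 and miR-425-5p form 2 0.0076. With all sequences of a name summed before the fit, miR-191 had −1.26 (SE 0.423, adjusted p = 0.0649) and miR-425 −0.40 (SE 0.331, adjusted p = 0.411).

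Calls on D20 depended on single animals, both among the members and over the whole list. Without PD20 replicate 4, the PD20 animal with the most miR-191-5p form 1, 6 members were called by the F-test (miR-191 forms 1 to 4 and 6, and miR-425-3p form 2), as were 13.3% of all sequences, and miR-191-5p forms 2 and 6 had log2FC of −2.68 and −2.75 (edgeR adjusted p = 0.0178 and 0.0295). Without CD20 replicate 4, the CD20 animal with the least, 5 members and 11.9% of all sequences were called, and without CD20 replicate 5 it was 4 and 6.76%. Without CD20 replicate 1, the animal with the most, 0 members and 0.573% of all sequences were called, the miR-191 median was −1.10 and that of miR-425 −0.08, and miR-191-5p forms 3 and 5 had −0.94 and −0.55. Without PD20 replicate 3, 1 of the libraries that stood apart, 0 members and 0.687% of all sequences were called, form 1 had −1.15 and the medians of miR-191 and miR-425 were −1.55 and −0.40. The sign of all 6 miR-191 forms was negative with each of the 11 animals left out.

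Summed levels of cell type markers in the same groups are given beside these values. Summed epithelial names had 19354 ± 4575 CPM in PD20 and 12588 ± 2305 CPM in CD20, where 5 of 6 PD20 values lay above all CD20 values. Names of stroma and smooth muscle had 116763 ± 137727 and 58859 ± 12385 CPM, with 396931 CPM in PD20 replicate 1 alone, and muscle names, 3 of 5 found with miR-133a and miR-133b not found by name, had 9980 ± 14977 and 3082 ± 3211 CPM, with 40186 CPM in that library. Without PD20 replicate 1 miR-191-5p form 1 had a log2FC of −1.02, and 0 members and 9 of all sequences were called. Erythrocyte names, 3 of 3 found and led by miR-451, had 2190 ± 1177 and 1076 ± 618 CPM. Leukocyte names, with miR-223 not found by name, had 110 ± 32.8 and 122 ± 51.7 CPM, and endothelial miR-126 had 3913 ± 606 and 4604 ± 293 CPM. Across the 30 animals the deviation of miR-191-5p form 1 from its group mean had r = −0.226 with that of the epithelial names, −0.336 with stroma and smooth muscle, −0.372 with muscle, −0.168 with erythrocyte, 0.272 with leukocyte and −0.0716 with endothelial names, as a description over libraries that share their scaling. Its r with the deviation of the TMM factor was 0.597. In PD20 replicates 1 to 6 the embryo-type miR-302 sequence had 2.44, 2.37, 4.57, 39.3, 17.1 and 41.2 CPM. In the same order miR-191-5p form 1 had 167, 221, 288, 511, 273 and 313 CPM. The part of these in the miR-191 values was not tested.

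On CD16 vs CD12 the miR-425 sequences shared a sign, whereas those of miR-191 had both. All 4 miR-425 sequences had negative log2FC, with a median of −1.58 against 0.03 over all sequences, of which 50.7% were positive. Of the 3 members with an unadjusted p under 0.05 all were miR-425 and lower in CD16, where 6.30% of all sequences were lower at that p. miR-425-5p form 1 had −2.13 (SE 0.581) and form 2 −1.52, and miR-425-3p form 2 had −1.63 with no overlap of the groups, as 2.86% of all sequences did in that direction. The joint test of edgeR gave adjusted p-values of 0.121, 0.227 and 0.154. Summed over its sequences miR-425 had −1.76 (SE 0.478, adjusted p = 0.0971) and miR-191 0.16. The 6 single miR-191 sequences had between −0.36 and 0.52, 3 of them above 0, with a median of 0.03 that turned sign with RLE scaling. Without CD16 replicate 3, the other library that stood apart, the medians of miR-191 and miR-425 were −0.04 and −1.92. In that fit 0 members and 8 of all sequences were called. With each other library of the cycle left out, 0 members and between 0 and 5 of all sequences were called.

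**Figure D2:**
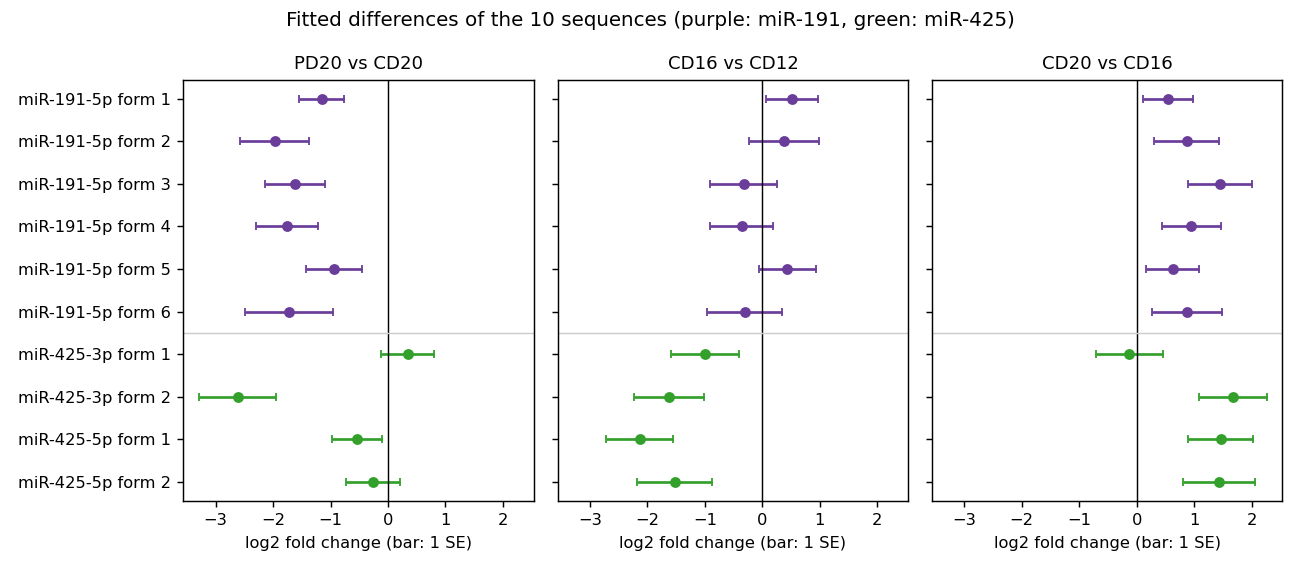
Fitted log2FC of the 10 sequences on 3 comparisons, with bars of 1 SE; points left of 0 are lower in the first group. All 6 miR-191 points lie below 0 on PD20 vs CD20 and around 0 on CD16 vs CD12, whereas the 4 miR-425 points lie below 0 on CD16 vs CD12 and only 1 lies far below 0 on PD20 vs CD20.

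From CD16 to CD20 both miRNAs had mostly the same sign. All 6 miR-191 sequences and 3 of 4 miR-425 sequences had positive log2FC, with medians of 0.87 and 1.45 against −0.03 over all sequences, of which 48.8% were positive. miR-425-3p form 2 had 1.67 (SE 0.589), miR-425-5p form 1 1.46 (SE 0.562), miR-425-5p form 2 1.44 and miR-191-5p form 3 1.45 (SE 0.557), with edgeR adjusted p between 0.113 and 0.194. These were the 4 members with an unadjusted p under 0.05, all higher in CD20, where 12.6% of all sequences were higher at that p. miR-425-5p form 1 had no overlap between CD16 and CD20, as 3.44% of all sequences did in that direction. Without CD20 replicate 1 miR-191-5p form 3 had 0.84 (edgeR adjusted p = 0.477) and the medians were 0.48 and 1.12, and without CD16 replicate 3 they were 0.97 and 1.74. In CD16 and CD20 leukocyte names had 48.2 ± 18.7 and 122 ± 51.7 CPM, and endothelial miR-126 3197 ± 610 and 4604 ± 293 CPM. Epithelial names had 19370 ± 5865 and 12588 ± 2305 CPM, and stroma and smooth muscle 70444 ± 21536 and 58859 ± 12385 CPM. Muscle names had 5394 ± 6381 and 3082 ± 3211 CPM, and erythrocyte names 1446 ± 935 and 1076 ± 618 CPM. The part of these markers was not tested. From CD12 to CD20 the medians differed in sign, with a log2FC of 1.06 for miR-191 (6 of 6 positive) and −0.38 for miR-425 (1 of 4 positive), where 54.2% of all sequences were positive. With all deposited reads as library size these medians were 1.49 and 0.01, against 0.47 over all sequences, without CD20 replicate 1 they were 0.56 and −0.83, and without CD12 replicate 2 that of miR-425 was −0.03. miR-191 forms 1 and 5 were the 2 members with an unadjusted p under 0.05, both higher in CD20, as 8.13% of all sequences were, and form 5 had a log2FC of 1.07 that was 0.67 without CD20 replicate 1. These comparisons share the CD12, CD16 and CD20 animals and are not independent of each other.

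Within pregnancy the members with an unadjusted p under 0.05 were no more frequent than sequences in general, with 1 of 10 on PD16 vs PD12 (10.2% of all), 1 of 10 on PD20 vs PD12 (20.6%) and 0 on PD20 vs PD16 (14.2%). miR-425-5p form 1 had a log2FC of −1.44 on PD16 vs PD12 (SE 0.500, joint edgeR adjusted p = 0.234), and without PD12 replicate 5, which had 19.9 CPM, it had −0.76. miR-425-3p form 2 had −1.97 on PD20 vs PD12 (SE 0.706, adjusted p = 0.244). For miR-191 all 6 sequences had negative log2FC on PD20 vs PD12 and on PD20 vs PD16, with medians of −0.55 and −0.43, where 49.3% and 45.5% of all sequences were positive. miR-425 had 1 of 4 positive on both, with medians of −0.27 and −0.31. Without PD20 replicate 3 the medians of miR-191 were −0.46 and −0.35 and those of miR-425 −0.34 and −0.22. These medians rested on single animals. On PD20 vs PD12 that of miR-191 was −0.28 without PD12 replicate 4, with 1 of 6 positive, and −0.93 without PD20 replicate 4, and that of miR-425 was 0.035 without PD12 replicate 5, with 2 of 4 positive. On PD20 vs PD16 that of miR-191 was 0.11 without PD16 replicate 1, with 4 of 6 positive, and −0.67 without PD20 replicate 4, and that of miR-425 was 0.17 without PD16 replicate 2, with 2 of 4 positive. On PD12 vs CD12 the median was −0.02 for miR-191, which turned to 0.24 with all deposited reads as library size against 0.32 over all sequences, and −0.63 for miR-425. The latter was −0.25 with all deposited reads, −0.21 without CD12 replicate 2 and −1.07 without PD12 replicate 5, with 0 of 4 positive in each. With single animals left out the miR-191 median ran from −0.28 to 0.33 (without CD12 replicates 2 and 1). On PD16 vs CD16 the medians were −0.18 and 0.45. They were −0.09 and −0.01 without PD16 replicate 4, −0.02 and 0.56 without PD16 replicate 2, −0.56 and 0.68 without PD16 replicate 1, and −0.19 and 0.41 without CD16 replicate 3.

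Whether the P vs C difference itself depended on the day was tested in 1 fit of all groups. By the edgeR F-test 0 of 10 members were called in any of the 3 pairs of days, and the background was 0% (D16 against D12), 0.115% (D20 against D12) and 2.41% (D20 against D16). The annotated miR-425-3p came nearest, with a difference of −3.07 on the log2 scale between D20 and D16 (SE 0.970, adjusted p = 0.0727). miR-191-5p form 1 had −1.40 between D20 and D12 (SE 0.539, adjusted p = 0.224). Without PD20 replicate 3 and CD16 replicate 3 these were −3.02 and −1.40 with adjusted p of 0.133 and 0.319, and no member had an adjusted p below 0.133. At an unadjusted p under 0.05, 4 members were counted for D20 against D12 (16.4% of all), 2 for D20 against D16 (19.1%) and 0 for D16 against D12 (8.13%).

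A ratio of reads within 1 library does not depend on scaling, and apart from counting error it stays constant where 2 miRNAs move together. The ratio of miR-191-5p form 1 to miR-425-5p form 1 had a median of 92.7 over the 30 libraries but ran from 8.95 to 266. It was 162, 8.95, 17.3 and 27.8 in CD12, and 184, 88.5, 81.2, 154 and 266 in CD16. The PD16 values were 208, 99.2, 139, 105 and 144, and PD20 ran from 27.5 to 113 with a median of 41.7. The high ratios of CD16 and PD16 rested on few reads of miR-425-5p form 1, 5 to 9 and 4 to 10 per library. How much of the range is counting error was not tested. The 5 lowest values came from CD12 replicates 2, 3 and 4, PD12 replicate 5 and PD20 replicate 1, so the low ratios of CD12 and PD20 overlapped.

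Between groups 36 differences of ratios were tested with an exact permutation test (two-sided, animals exchanged between groups), and 0 passed after adjustment, the smallest adjusted p being 0.257. The smallest p that this exact permutation test can give ran from 0.00216 to 0.00794, by group size. A lone difference at that limit could not pass the adjustment over 36 tests. That 0 passed therefore does not show that the ratios were equal. An unadjusted p under 0.05 was found for 5 of the 36 differences. The ratio of miR-191-5p to miR-425-5p differed by 2.28 on the log2 scale on CD16 vs CD12 (exact permutation p = 0.0397), by 1.23 on PD16 vs PD12 (p = 0.0476, exact permutation) and by −1.39 on PD20 vs PD16 (p = 0.0173, exact permutation). The ratio of miR-191-5p to miR-425-3p form 1 differed by 2.18 on CD20 vs CD12 (p = 0.0238, exact permutation) and by −1.72 on PD20 vs CD20 (p = 0.00866, exact permutation), where 5 of 6 PD20 values lay below all CD20 values. The size of these differences depended on which ends were counted. With all reads sharing the first 17 bases of an arm the difference was 1.71 on CD16 vs CD12 (p = 0.0159, exact permutation), but −0.0088 on PD16 vs PD12, −0.58 on PD20 vs PD16, 0.97 on CD20 vs CD12 and −0.58 on PD20 vs CD20, with exact permutation p between 0.136 and 0.976. Without PD12 replicate 5 that on PD16 vs PD12 was 0.72 (p = 0.0794, exact permutation). Without PD20 replicate 3 the differences on PD20 vs CD20 and PD20 vs PD16 were −1.74 and −1.28, and without CD16 replicate 3 that on CD16 vs CD12 was 2.47. The ratio of form 1 to form 2 of miR-191 was 5.25, 3.80, 6.40, 2.18, 4.78 and 6.11 in PD20 and 1.79, 2.01, 1.69, 3.52 and 5.32 in CD20, a difference of 0.80 (p = 0.0693, exact permutation).

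**Figure D3:**
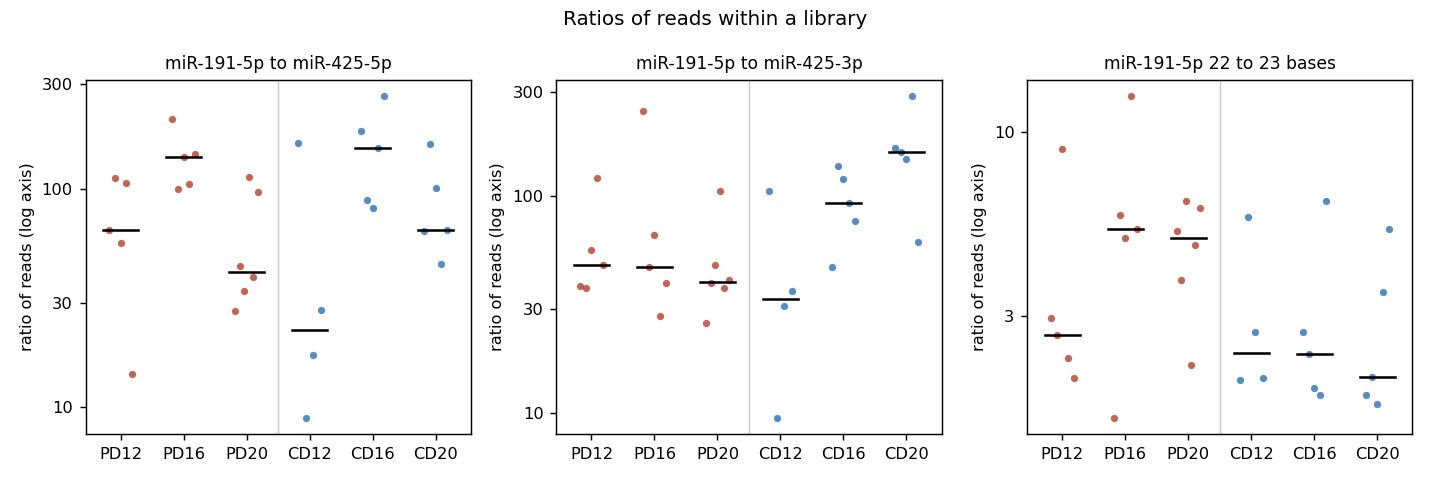
Ratio of reads of 2 sequences within each library, on a log axis, by group (red, pregnant; blue, cyclic), with a bar at the group median. The ratio of miR-191-5p to miR-425-5p spans 8.95 to 266, and that of the 22-base to the 23-base miR-191-5p stays above 1 in all 30 libraries.

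From animal to animal the most abundant sequence of miR-191 and those of the miR-425 arms showed no detectable relation. Over 30 animals log2 CPM of miR-191-5p form 1 had r = −0.0405 (rho = −0.123) with miR-425-5p form 1, by permutation p = 0.833 and 0.515. With miR-425-3p form 1 it had r = 0.0106 (rho = −0.0345, permutation p = 0.955 and 0.855). On deviations from the group means, with animals permuted within groups, r was −0.0223 (rho = 0.0327, p = 0.918 and 0.877) and 0.258 (rho = 0.197, p = 0.253 and 0.343). Without the 2 animals farthest from the median of miR-191, r with miR-425-5p was −0.236 on deviations and −0.279 over animals. The last r, with miR-425-3p, was then −0.0116, so it rested on those animals, and it was −0.0333 among pregnant and 0.428 among cyclic animals. In all 8 relations were tested, and the adjusted p of these was 0.404 or more.

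The arms of miR-425 had r = 0.340 on deviations (rho = 0.336, permutation p = 0.0940 and 0.0989, adjusted p = 0.188), with r = 0.327 without the 2 farthest animals, 0.144 among pregnant and 0.467 among cyclic animals. By contrast the 2 leading miR-191 forms moved together. Their deviations had r = 0.755 (rho = 0.715), with a permutation p of 1e-05 for r, the smallest that 100000 resamples can give, an adjusted p of 4e-05, and r = 0.698 without the 2 farthest animals, 0.757 among pregnant and 0.777 among cyclic animals. Without both libraries that stood apart, r was −0.0185 and 0.254 for miR-191 with the arms of miR-425 and 0.765 for the miR-191 forms. Both miR-191 forms also varied with the TMM factor, with r of deviations of 0.597 (form 1) and 0.548 (form 2). For miR-425-5p and miR-425-3p that r was −0.0758 and 0.102. The part of this scaling in the contrast was not tested. Among the 15 pairs of miR-191 forms r of the deviations ran from 0.477 to 0.870 with a median of 0.729. The 12 pairs of a miR-191 form with a miR-425-3p form ran from −0.182 to 0.322, those with the annotated miR-425-3p form 2 all being positive, from 0.267 to 0.322, and the 12 with a miR-425-5p form from −0.183 to 0.402. Over 30 animals, differences between groups included, r of form 2 of miR-425-3p with the miR-191 forms ran from 0.307 to 0.568 and that of form 1 from −0.280 to 0.0303, as a description. For scale, r over all 149878 pairs of the 548 sequences with at least 10 CPM had a median of 0.00215, and the middle of its range, from the 5th to the 95th percentile, was −0.560 to 0.576. The low counts of miR-425 add counting error to each r with it, and how much was not tested.

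**Figure D4:**
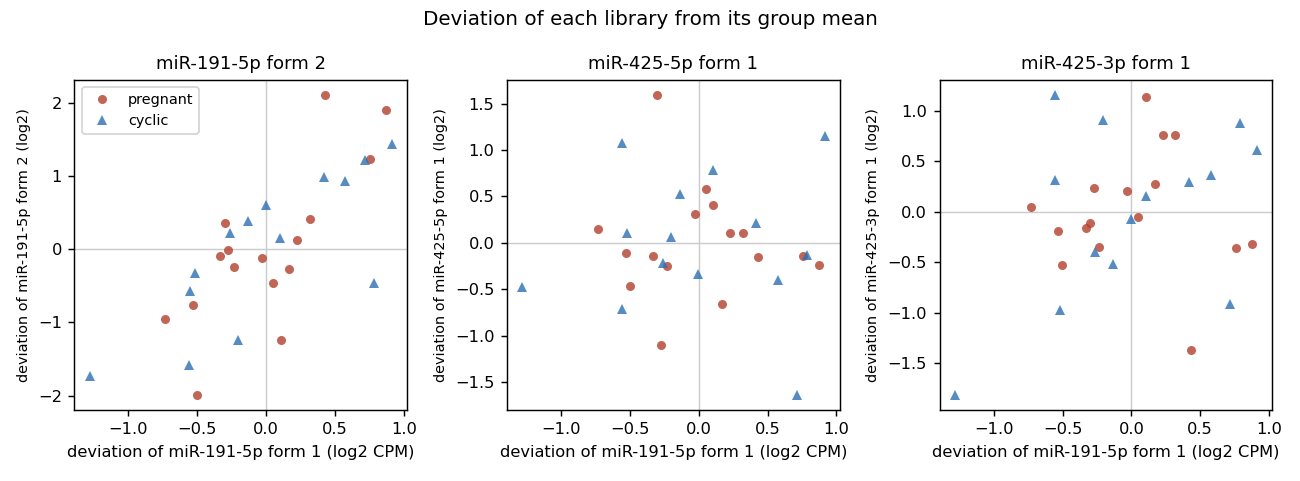
Deviation of log2 CPM of each of 30 libraries from its group mean, for miR-191-5p form 1 on the x axis and another member on the y axis (red circles, pregnant; blue triangles, cyclic). The miR-191 pair lies along a line with r = 0.755, and both miR-425 panels are scattered, with r = −0.0223 and 0.258.

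Other miRNA pairs that share a cluster were measured in the same way, as a description. Of 20 listed pairs 19 had both members in the data, and r of their deviations ran from −0.762 to 0.865 with a median of 0.191. Pairs with a high r were miR-17 and miR-20a (0.865), miR-23b and miR-27b (0.676), miR-144 and miR-451 (0.640) and miR-182 and miR-183 (0.584), and 6 of 19 exceeded 0.5. At the other end were miR-200c and miR-141 (−0.762) and miR-30d and miR-30b (−0.394). The pair of miR-191 with miR-425-5p had 11 of the 19 above it, and that with miR-425-3p 9. The r of these pairs was thus far from uniform. Each miRNA was represented by its most abundant form only, and reads were not assigned to a locus, so the co-variation of whole clusters was not measured.

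**Figure D5:**
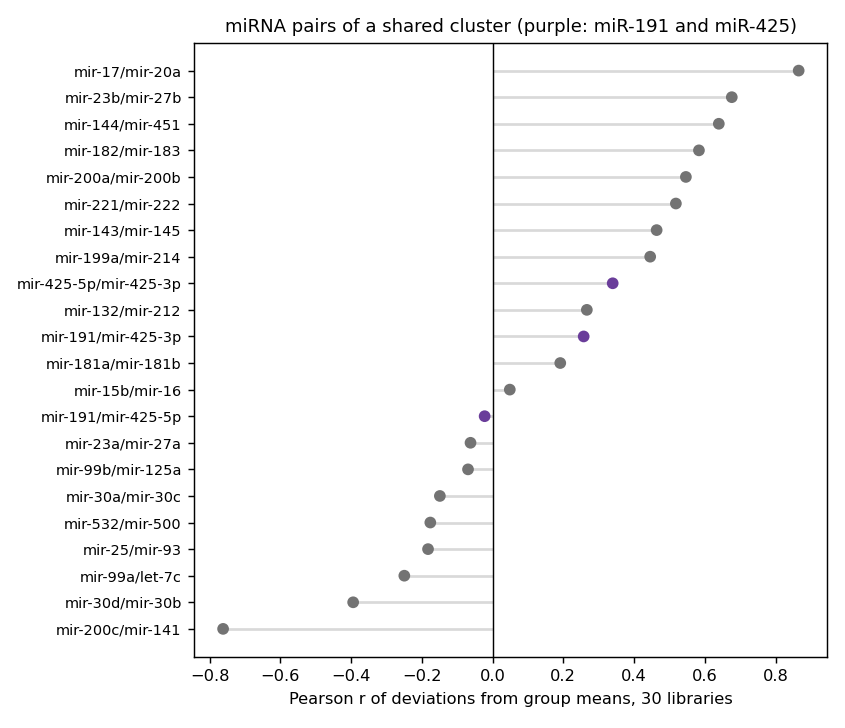
Pearson r of deviations from group means over 30 libraries for pairs of miRNAs that share a cluster (grey) and for miR-191 with each arm of miR-425 and both arms with each other (purple). The purple points lie in the middle of a range from −0.762 to 0.865.

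Sequences with at least 10 CPM were ranked by r of deviations over 30 libraries. Those most like miR-191-5p form 1 were a sequence listed under an Ensembl gene name (0.753), a miR-200a form (0.738), miR-99b (0.727), a miR-30c-1 form (0.725) and a miR-99a form (0.724). Those most like miR-425-3p form 1 were miR-374a-5p (0.545), miR-98 (0.539), a let-7b form (0.507), a miR-22 form (0.506) and a miR-92a-1 form (0.501). Ranked among the 867 sequences other than miR-191 by their r with miR-191-5p form 1, the 4 miR-425 forms stood at 252, 269, 455 and 540. Among the 869 sequences other than miR-425, by r with miR-425-3p form 1, miR-191-5p form 1 stood at 98 and form 5 at 152. The other miR-191 forms stood between 364 and 671. Sequences often used as references, or used so in the study, lay on both sides of the SD of 0.59 of miR-191-5p form 1. The study's own choices included miR-148a and miR-199b. The SD within groups on the log2 scale was 0.31 for miR-93, 0.32 for let-7d, 0.43 for miR-26a, 0.47 for miR-103, 0.48 for miR-25, 0.49 for let-7a, 0.81 for miR-148a, 0.82 for miR-199b, 0.83 for miR-423 and 0.83 for miR-16, each for its most abundant form.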

How the data were processed

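Small RNA of porcine endometrium was sequenced in 30 libraries. For each, the authors deposited raw read counts of distinct sequences, made by joining reads, quality filtering, adapter removal, discarding reads under 17 nt or with unknown bases, and collapsing identical reads. The counts are not aligned or normalized. Names came from the list of annotated sequences that accompanies the article, of which only names and sequences were used. Members were joined by exact match. The members and lists were chosen with earlier results of these data known. DALRD3 was placed with a RefSeq gene table (Sscrofa11.1), used only for gene neighbourhood. The pool in which each library was sequenced was not analysed here.

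Counts of all listed sequences were fitted in edgeR 4.0.16 (R 4.3.3), library size being the reads of annotated sequences, scaled by TMM. The quasi-likelihood F-test was used with Benjamini-Hochberg adjustment over all sequences. Each SE was derived from the log2FC and the F value of the single contrast. Ratios used 0.5 added reads and exact permutation. Correlations used log2 CPM with a prior count of 2 and 100000 permutations. Named sequences were all members, the 5 others most correlated with the most abundant miR-191 and miR-425 sequence, and 2 fixed lists (10 reference miRNAs and 20 cluster pairs). The alternatives were the likelihood ratio test, DESeq2 1.42.0, RLE scaling, all deposited reads as library size, a 10 CPM filter, all deposited sequences, 1 fit of all libraries, isomiRs summed, the replicate block, single contrasts and each library left out. Reads carry no molecular identifiers, so limits on a count of 0 cover counting error only. Scripts were tested on simulated data.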

Additional observations from a re-analysis of the deposited data

Results flagged for a closer look

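In 8 of 84 sets of 4 to 6 values of the members and of their ratios, 1 animal lay far from the others of its group, measured by its gap to the nearest value relative to the range, where chance gives about 1 in 20 for independent, normally spread sets. These sets share libraries and related forms, and all 8 values, from 7 animals, lay on the high side. Levels of the members were taken here as CPM without logs, and only the ratios as log2. How far that scale set the number and the side of these values was not tested. For miR-191-5p form 2 these were PD16 replicate 1 with 333 CPM, where the others had 32.02 to 83.7, and PD20 replicate 4 with 235 CPM, where the others had 31.7 to 58.0. The miR-191-5p form 6 was high in the same PD20 animal (10.1 CPM, others 0.340 to 3.20) and in CD12 replicate 1 (10.96 CPM, others 4.95 to 5.38). miR-425-5p form 1 was high in PD12 replicate 5 with 19.9 CPM against 2.41 to 6.57, and in CD20 replicate 1 with 17.04 CPM against 5.01 to 7.62. miR-425-5p form 2 had 12.97 CPM in PD16 replicate 2 and 0.745 to 3.33 in the others. The ratio of miR-191-5p form 1 to form 2 was 8.98 in PD12 replicate 3 and 1.99 to 2.96 in the others.

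A form outside the list of annotated sequences, cAACGGAAtcccaaaagcagcc with the seed in capitals, differs from miR-191-5p form 1 by T22C and held 5685 reads in all, the third highest count of a miR-191 end after forms 1 and 2. It reached 12.4% to 30.0% of the reads of form 1 in 28 libraries, with 1 read in PD20 replicate 3 and 0 in CD16 replicate 3, and was counted in none of the values of the members.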

How the results depend on the processing

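No member was called between PD20 and CD20, but 5 were with the likelihood ratio test, 5 with DESeq2, 5 with 1 fit of all 30 libraries and 1 with all deposited reads as library size, where 124, 131, 98 and 16 of all sequences were called instead of 13. The last setting moved the median log2FC of all sequences from −0.03 to −0.27. Leaving out single animals gave 0 to 6 members, 6 when PD20 replicate 4 was left out, 5 for CD20 replicate 4, 4 for CD20 replicate 5 and 0 for any other. The first 3 of these called 116, 104 and 59 of all sequences, and the others between 5 and 12. Between CD16 and CD12 1 member was called with the likelihood ratio test, 1 with DESeq2 and 1 with the fit of all libraries, where 46, 17 and 10 of all sequences were called instead of 1. That fit also called 1 member and 64 of all sequences between CD20 and CD16, instead of 4. Signs turned for values near 0. On CD16 vs CD12 the log2FC ran, with single animals left out, from −0.59 to 0.081 for miR-191-5p form 3 and from −0.61 to 0.046 for form 6, both positive only without CD12 replicate 1. On PD20 vs CD20 it ran from −0.41 to 0.0076 for miR-425-5p form 2, positive only without CD20 replicate 4, and was −0.40 for miR-425-3p form 1 with isomiRs summed, which merges it with the other miR-425 sequences. The log2 ratio difference of miR-191-5p to miR-425-5p on PD16 vs PD12 was −0.0088 with all reads sharing the first 17 bases. The r of miR-191 with miR-425-5p was 0.116 over animals and 0.171 on deviations with all deposited reads as library size, and 0.00458 on deviations in cyclic animals. The r with miR-425-3p was −0.0209 over animals and −0.0333 on deviations in pregnant animals (0.0845 and 0.428 in cyclic animals), and −0.0116 without the 2 farthest animals. The cause of these changes was not tested. Of the remaining values of single sequences and ratios, 235 kept their direction and side of the threshold and 20 passed it under another setting, and 398 and 15 did so with single animals left out. The miR-191 sequences fitted were negative on PD20 vs CD20 in each setting (5 of 6 passed the 10 CPM filter), and so were the miR-425 sequences on CD16 vs CD12, except that none of them passed that filter. With all deposited reads as library size the median of all sequences was 0.47 on CD20 vs CD12, 0.32 on PD12 vs CD12, 0.23 on CD20 vs CD16, −0.17 on PD20 vs PD12 and 0.16 on CD16 vs CD12.

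Animals that share a replicate number were not paired by the labels, and their deviations correlated over 0.1 in at most 2 of 5 pairs of any comparison. With the replicate number as a block 0 members were called, 5 instead of 13 of all sequences were called between PD20 and CD20, and miR-191-5p form 6 had 0.077 on CD16 vs CD12. The block turned the sign of no median. It moved by over 1.5 times those of miR-425 on PD12 vs CD12 (−1.13), PD16 vs PD12 (−0.33), PD20 vs PD12 (−0.12), PD20 vs PD16 (−0.14), CD20 vs CD12 (−0.21) and PD20 vs CD20 (−0.23), and of miR-191 on CD20 vs CD16 (0.58), PD16 vs CD16 (−0.38), CD16 vs CD12 (0.31) and PD12 vs CD12 (−0.048).

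The correlations and the test of P vs C by day without PD20 replicate 3 and CD16 replicate 3 were added after seeing the data. Each single miR-425 sequence had 87 reads or fewer in any library, and how far this limited its comparisons was not tested.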

Other observations

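The 3′ end of miR-191 varied from library to library. The log2 ratio of the 22-base to the 23-base miR-191-5p ran from 0.62 to 3.67 over the 30 libraries, and its SD of 0.82 exceeded that of 79.2% of 240 other pairs of sequences that differ by 1 last base. The last base lost from form 2 is a G, yet the ratio had r = −0.271 (rho = −0.254, permutation p = 0.148 for r) with the median over 56 other pairs that lose a G. It had r = 0.717 (rho = 0.794, permutation p = 2e-05 for r, adjusted p = 1e-04) with the median over 90 pairs that lose a T, and 0.788 without the 2 farthest animals. With the 54 pairs that lose an A it had r = −0.678 (rho = −0.547, permutation p = 5e-05, adjusted p = 0.000125), and −0.524 without the 2 farthest. With the 40 pairs that lose a C r was −0.121, and with all 240 pairs it was −0.0398. On deviations from the group means r was 0.688 for T and −0.598 for A. In all 5 relations were computed, and their libraries share depth and preparation.

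The forms of miR-191 were not equally steady in composition. Form 1 took between 54.2% and 84.7% of the listed miR-191 reads, with a mean of 73.6% ± 11.3 in PD16 and 72.0% ± 6.48 in PD20 but 62.8% ± 9.51 in CD20 and 62.4% ± 7.38 in CD12. Form 4, the 24-base sequence, took 4.09% ± 1.11 in CD12 and 2.05% ± 0.679 in PD16. These shares were not tested.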
